A study of Mus musculus with 20 samples.

Results

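Neurons release transmitter by fusing vesicles with the membrane of the nerve terminal, and the 74 genes described here encode the proteins that carry out and time that fusion. They were chosen by name from the 22048 genes in the count tables: every symbol of the syntaxin, SNAP, VAMP, syntaxin-binding protein, synaptotagmin, complexin, Unc13, RIM, Rab3, synapsin and SV2 families, together with Syp, Nsf and Snap91. The rule uses symbols only. Besides the neuronal genes this brings in relatives that act in other cells or on other membranes, and these were kept and described apart.

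As background, a vesicle SNARE of the synaptobrevin group zips together with a syntaxin and a SNAP protein of the plasma membrane. Rab3, RIM and Unc13 proteins dock the vesicle and make it ready, complexins clamp and then aid the last step, and Ca2+ binding to a synaptotagmin sets it off. Nsf takes the used SNARE complexes apart, and the clathrin assembly protein encoded by Snap91 helps to recover the membrane. In the arcuate nucleus of the hypothalamus the same machinery serves the AgRP and POMC neurons that control feeding, as well as the neuroendocrine neurons of that nucleus.

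The samples were arcuate nuclei taken by laser capture microdissection from male C57BL6/J mice, recorded as 10 weeks old in all groups. The mice drank either corticosterone (Cort, the main glucocorticoid of the mouse) at 75 μg/ml in 1% ethanol or the 1% ethanol vehicle alone. The study describes acclimatization and baseline periods before treatment, so the recorded age may not be that at treatment or death. Treatment lasted 2 days or 4 weeks, with 5 vehicle and 5 Cort samples in each dataset and no other manipulation in either arm. The 4 week mice were also fasted for 16 h and refed for 24 h before they were killed, and the datasets differed in section thickness, laser system and sequencer. Age at death was not given and may have differed as well. The length of treatment cannot be told apart from these. Samples are named here by their number in each count table, C01 to C10, counted separately in each dataset.

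The study set 3 samples of each dataset aside as outliers, namely vehicle samples C07 and C09 with Cort sample C08 in the 2 day dataset, and vehicle samples C01 and C05 with Cort sample C06 in the 4 week dataset. Tests used the 3 vehicle and 4 Cort samples that remained, and results are also given with all 10. Depth was 2487063 to 5748223 counts per kept sample at 2 days and 1837715 to 5196364 at 4 weeks, and the 3 samples set aside at 4 weeks held 1065776 to 3646528 counts and 10805 to 11330 detected genes, against 11579 to 13013 in those kept. Levels are given as CPM, the count of a gene per 1000000 counts of the TMM-scaled library total. Arcuate markers were present in every sample, with 122 to 924 CPM of Agrp at 2 days and 18.0 to 289.8 at 4 weeks, while Nr5a1, which marks the neighbouring ventromedial nucleus, stayed at or below 2.44 CPM. The summed CPM of 17 general neuron markers overlapped between vehicle and Cort in both datasets, at 9021 to 9043 against 8627 to 9384 at 2 days and 6816 to 7423 against 6523 to 8076 at 4 weeks. Other lists did not overlap among the kept samples: at 2 days 12 arcuate neuron markers summed to 2009 to 2567 CPM with vehicle and 2646 to 3496 with Cort, and oligodendrocyte markers to 483 to 513 and 535 to 728. At 4 weeks astrocyte markers summed to 3516 to 3676 and 3986 to 5465 CPM, and tanycyte markers to 510 to 824 and 220 to 486. With all 10 samples each of these lists overlapped. Their part in the results below was not tested.

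The most abundant member was Snap25, the neuronal SNAP protein of the plasma membrane. Per kb of exon, which allows levels of different genes to be compared, its median over the 10 samples of the 2 day dataset was 366.8 CPM per kb, with a range of 299.9 to 414.6. Vamp2, the main synaptobrevin of the forebrain, came next at 287.9 CPM per kb (252.6 to 342.8), and its lowest sample lay above the highest of every member below it. Below them were Rab3a at 156.9, Syp at 148.9, Syt4 at 124.0, Syt5 at 123.5, Syn1 at 119.4 and Syt11 at 108.2 CPM per kb. Each of these 6 members overlapped the next in its range over samples, so no order can be read among them. The first 10 members held 59.5% of the per kb total of the 73 members with a gene model, and Vamp7, which has none in the annotation used, was left out of this ranking.

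At 4 weeks the same pair led, with Snap25 at 331.5 CPM per kb (228.4 to 373.3) and Vamp2 at 207.6 (103.9 to 440.2). The ranges of this pair overlapped in both datasets, and at 4 weeks Vamp2 also overlapped Syt4, the next member, which reached 190.0. Of the first 10 members in each dataset, 8 were the same, and across the 73 members the median levels of the datasets had a Spearman correlation of 0.967. Genes are not independent replicates and both axes share the same exon lengths, so this describes the ranking only. Dividing by the longest coding transcript in place of all exons left Snap25 and Vamp2 first in both datasets.

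**Figure D1:**
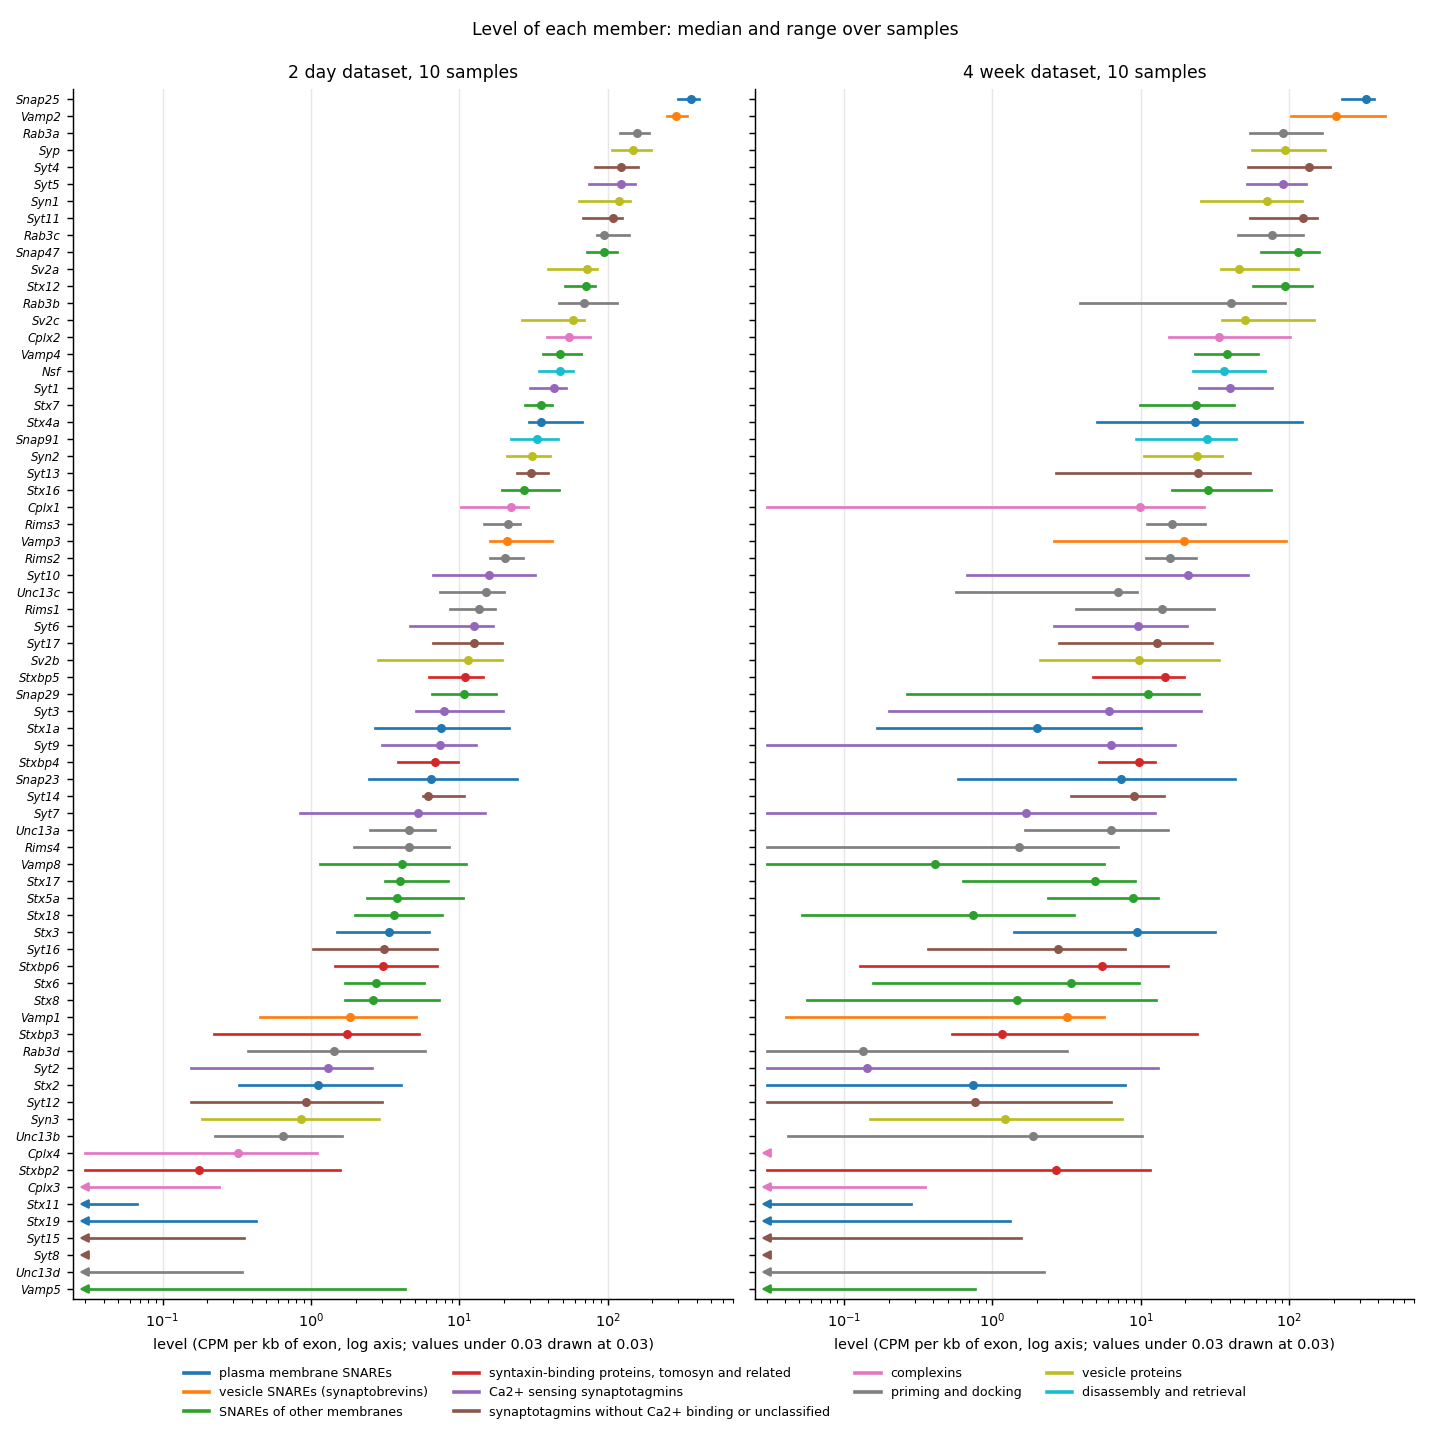
Levels of the members with a gene model in the 2 day dataset (left) and the 4 week dataset (right), in CPM per kb of exon on a log axis. Points are medians and lines the range over 10 samples, coloured by role, and arrowheads mark medians under the axis limit. Snap25 and Vamp2 lead in both datasets, and most ranges are wider at 4 weeks.

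In some pairs of paralogs a single gene carried most of the RNA, and these ratios were taken within each sample per kb of exon, as a description with no test. The folds depend on the gene length used. By the longest coding transcript, the 2 day medians were 1177 CPM per kb for Snap25 and 10.1 for Snap23. They were 497.3 for Vamp2 and 6.16 for Vamp1, and 120.8 for Syn1 and 56.1 for Syn2. Snap25 exceeded its broadly expressed relative Snap23 by a median of 53.2-fold and 40.3-fold in the respective datasets. Vamp2 exceeded Vamp1, the form typical of spinal cord and brainstem, by a median of 160-fold at 2 days and 58.1-fold at 4 weeks. The fast Ca2+ sensor Syt1 exceeded Syt2 by a median of 34.0-fold at 2 days, and at 4 weeks Syt2 had no count in 3 of the 10 samples. The first gene of each of these 3 pairs was higher in every sample of both treatments. Syt1 was not the leading synaptotagmin, with a median of 43.7 CPM per kb at 2 days, below Syt4, Syt5 and Syt11.

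Other pairs were more even. Syn1 exceeded Syn2 by a median of 3.51-fold at 2 days and 3.68-fold at 4 weeks, and Sv2a exceeded Sv2b by 6.41-fold and 4.66-fold, each in all 20 samples. Cplx2 exceeded Cplx1 in all 10 samples at 2 days (1.61 to 5.21) and in 9 of 10 at 4 weeks, and Unc13a exceeded Unc13b in all 10 and in 8 of 10. Unc13c was the highest of its family at 2 days, with a median of 15.2 CPM per kb against 4.62 for Unc13a, while at 4 weeks they were at 7.01 and 6.31. Per kb of all exons Rims2 and Rims1, the large RIM scaffolds, were close. Rims2 was higher by a median of 1.57-fold at 2 days (1.13 to 2.11), and higher in only 6 of 10 samples at 4 weeks. By the same measure the short Rims3 was level with Rims2, at a median of 21.2 against 20.4 CPM per kb at 2 days. By the longest coding transcript these 3 genes were further apart, with 2 day medians of 44.0 for Rims2, 26.0 for Rims3 and 15.5 CPM per kb for Rims1. Per kb of all exons Rab3a and Rab3c were also close. At 2 days the ratio of Rab3a to Rab3c was 1.77 to 1.86 in the 3 kept vehicle samples and 0.980 to 1.86 in the 4 kept Cort samples. At 4 weeks it was 1.36 to 2.10 and 0.727 to 2.16. The Cort samples reached lower ratios in both datasets, but the groups overlapped in both.

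**Figure D2:**
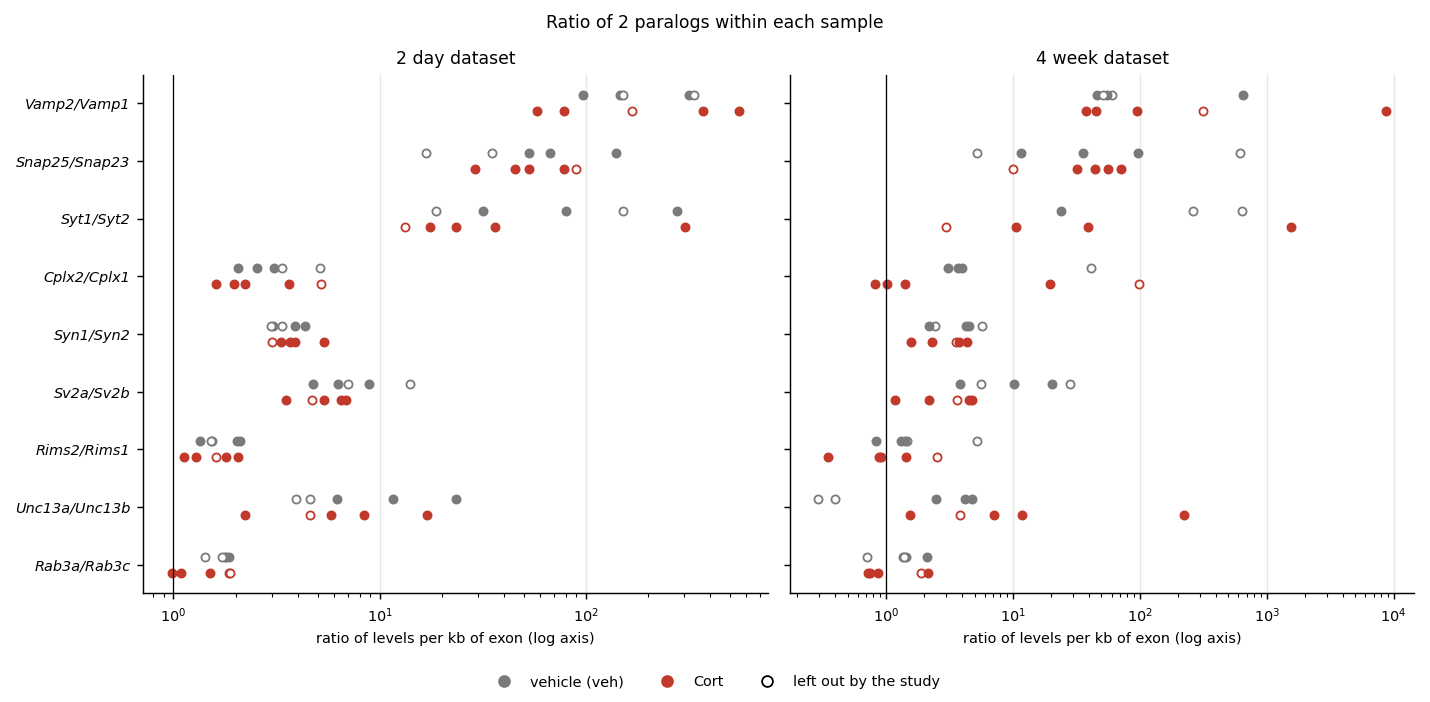
Ratio of 9 pairs of paralogs within each sample, per kb of exon, on a log axis, for the 2 day (left) and 4 week (right) dataset. Grey points are vehicle and red points Cort samples, open where the study left the sample out, and samples in which the second gene had no count are not drawn. Points to the right of the line at 1 favour the first gene of the pair, as in all 20 samples for Snap25 over Snap23.

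There were 8 members at the limit of detection. Syt8, a synaptotagmin found mainly outside the brain, had no count in any of the 20 samples, which allows up to 3 counts per sample, or 0.522 to 2.81 CPM depending on depth. Cplx4, a complexin of the retina, had none in the 4 week dataset and at most 12 counts in a sample at 2 days. Cplx3, the other retinal complexin, reached 4 counts, Stx11, a syntaxin of immune cells, 5, Stx19 11, and Syt15 20 counts in any sample. Vamp5, a muscle VAMP, was above 3 counts in 2 samples at 2 days and 1 at 4 weeks, and Unc13d, which primes granules in immune cells, in 1 and 2. In single samples these 2 rose well above the floor. Vamp5 reached 41 counts (11.7 CPM) in 2 day sample C09 and Unc13d 44 counts (10.5 CPM) in 4 week sample C08. More than 3 counts were found in every sample for 63 of the 74 members at 2 days and for 48 at 4 weeks. The exons of 6 members overlapped other genes over more than 10% of their length, among them Stx18 (32.3%, Gm42858 and Nsg1), Syn3 (14.1%, Timp3), Syp (16.8%) and Syt4 (14.5%). The strand setting of the counting was not given in the sources used here, so their counts may hold reads of the neighbour. In the annotated transcripts, 11 of the 73 members shared more than 5% of their stretches of 50 bases, the read length, with a transcript of another gene, among them Syt12 (17.03%) and Stxbp3 (9.27%, a pseudogene).

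The effect of 2 days of Cort was the first question. Of the 74 members, 65 had enough counts to test, and the 9 that did not were Stxbp2 and the 8 at the limit of detection. Of the 65, none reached an adjusted P (Padj) below 0.1 in edgeR's quasi-likelihood test, the threshold at which 0.065% of all 12309 genes tested were called, and the lowest Padj of a member was 0.545. At an unadjusted P below 0.05 there were 6 members (9.23%), against 5.97% of all genes. By DESeq2 there were also 6, of 72 members tested, where 6.18% of all genes had such a P. Lower with Cort were Syt5, Syt17, Syt1 and Syt10 (6.15% of members, 2.83% of all genes) and higher were Rims4 and Vamp4 (3.08%, 3.14%). The median log2 fold change of the members was -0.03, beside 0.02 for all genes, with 32 members higher and 33 lower (49.2% higher, against 52.1% of all genes). In bulk tissue such as this, fewer cells of a type and less RNA per cell cannot be told apart.

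The 4 members that were lower at an unadjusted P below 0.05 are all synaptotagmins. The family did not fall as a whole: 2 of 8 Ca2+ sensing and 4 of 7 other synaptotagmins tested were higher with Cort. Syt5 (chromosome 7, 4539765 to 4547541, GRCm38), a Ca2+ binding synaptotagmin of secretory vesicles, stood at 363, 314 and 309 CPM in the vehicle samples C02, C04 and C05. It stood at 213, 187, 264 and 279 CPM in the Cort samples C01, C03, C06 and C10. All Cort samples were thus below all vehicle samples, and this held with the samples set aside, which were at 326 and 332 CPM with vehicle and 179 CPM with Cort. The log2 fold change was -0.47 (95% interval -0.80 to -0.14, Padj = 0.594), and with all 10 samples -0.54 (Padj = 0.769, edgeR). Leaving out any 1 of the 7 samples kept it between -0.56 and -0.38.

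Syt17 (chromosome 7, 118380717 to 118448222), a synaptotagmin relative without a transmembrane segment, was at 88.8, 72.0 and 101.7 CPM with vehicle and 60.6, 34.7, 46.4 and 55.7 CPM with Cort. The groups did not overlap among the kept samples, with a log2 fold change of -0.81 (-1.35 to -0.28, Padj = 0.545, edgeR). The samples set aside lay the other way, at 41.9 and 70.4 CPM with vehicle and 79.6 CPM with Cort, and with all 10 the difference was -0.42 (-0.99 to 0.14). Syt10, a Ca2+ sensor known from olfactory bulb neurons, was at 39.9 to 60.0 CPM with vehicle and 15.8 to 41.4 CPM with Cort, which overlapped.

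Syt1 (chromosome 10, 108497650 to 109010982), the sensor for fast synchronous release, was at 440, 436 and 430 CPM with vehicle. With Cort it was at 394, 382, 347 and 286 CPM. The kept groups did not overlap and differed by -0.30 on the log2 scale (-0.58 to -0.01, Padj = 0.817, edgeR), but the samples set aside were at 248 and 285 CPM with vehicle and 255 CPM with Cort, all below the kept samples. With all 10 samples the difference was -0.13 (-0.51 to 0.24). The P of Syt1 stayed below 0.05 in 2 of the 7 fits that left out a sample, against 7 of 7 for both Syt5 and Syt17.

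Rims4 (chromosome 2, 163859751 to 163918683) encodes a short RIM protein that lacks the scaffold parts of Rims1 and Rims2. It was at 10.7, 21.6 and 16.3 CPM with vehicle and 32.1, 24.2, 42.2 and 30.6 CPM with Cort. The samples set aside fell within this pattern, at 11.1 and 9.7 CPM with vehicle and 29.9 CPM with Cort, so that all 5 Cort samples were above all 5 vehicle samples. The difference was 1.01 on the log2 scale (0.20 to 1.81, Padj = 0.745) and 1.20 with all 10 samples (Padj = 0.769, edgeR). Without vehicle sample C02 or without Cort sample C06 its unadjusted P was above 0.05. Vamp4, a SNARE of the trans-Golgi network, was at 167 to 186 CPM with vehicle and 200.1 to 259.9 CPM with Cort among the kept samples. The vehicle samples set aside, at 303 and 298 CPM, were above all of these.

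Vehicle and Cort did not overlap for 6 of the 65 members among the 7 kept samples (9.23%, against 6.63% of all genes), which adds Syt4 to the genes above in place of Syt10. Over all 10 samples only Rims4 and Syt5 did not overlap, or 3.08% of the members against 0.801% of all genes. At an unadjusted P below 0.05, all 10 samples gave 4 members (6.15%, against 5.28% of all genes), these being Syt5, Rims4, Rab3b and Sv2c. Rab3b was at 166 to 287 CPM with vehicle and 240.4 to 409 CPM with Cort over all 10 samples, and Sv2c at 257 to 595 and 523 to 675 CPM. Both were lowest in the vehicle samples that the study set aside, and neither had a P below 0.05 among the kept samples.

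**Figure D3:**
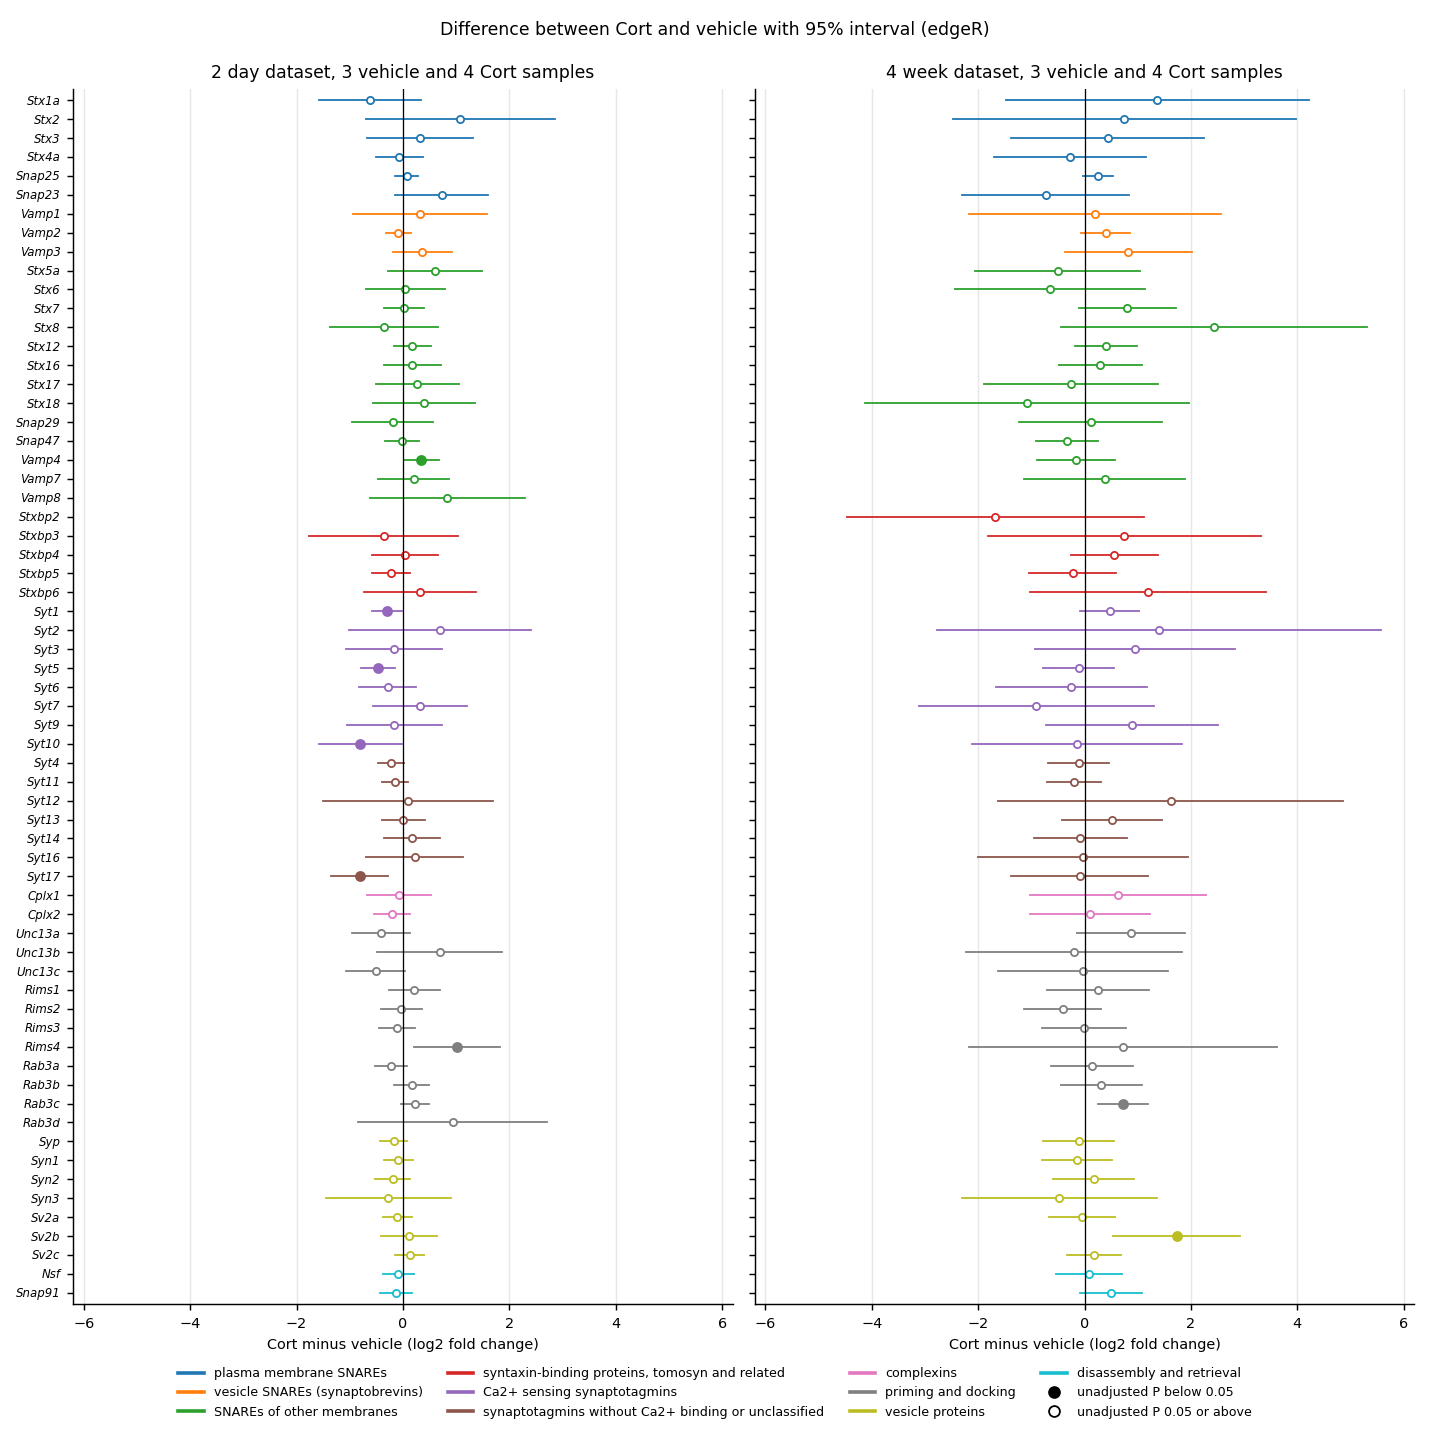
Difference between Cort and vehicle for the members tested, as log2 fold change with its 95% interval from edgeR, at 2 days (left) and 4 weeks (right), over 3 vehicle and 4 Cort samples. Filled points had an unadjusted P below 0.05 and no member had a Padj below 0.1. Intervals are wider at 4 weeks. Synaptotagmins, of which 8 Ca2+ sensing and 7 others were tested, hold 4 of the 6 filled points at 2 days. With all 10 samples only Syt5 of these had an unadjusted P below 0.05.

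Members at high levels, among them many core fusion genes, were measured more tightly than those at low levels. At 2 days Snap25 was at 2155 to 2608 CPM with vehicle and 2037 to 2815 CPM with Cort, a log2 difference of 0.07 (-0.15 to 0.29). Vamp2 differed by -0.09 (-0.32 to 0.14). The interval lay within a 1.5-fold difference in either direction for 25 of the 65 members, and within 2-fold for 40. Among those 25 were also Syp, Syn1, Syn2, Sv2a, Sv2c, Nsf, Snap91, Cplx2, Rims2, Rims3, Rab3a, Rab3b and Rab3c. For Unc13a (-0.96 to 0.12), Unc13c (-1.07 to 0.04) and Stx1a (-1.58 to 0.34) the intervals also held differences beyond 1.5-fold. The median standard error of the log2 fold change was 0.14 for the 23 members with a median of 200 CPM or more and 0.46 for the 27 members between 5 and 50 CPM.

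After 4 weeks of Cort, 64 members had enough counts to test, without the 8 at the limit of detection, Vamp8 and Rab3d. Again none had a Padj below 0.1 (0.0446% of 11211 genes did), the lowest being 0.900 by edgeR and 0.159 by DESeq2. At an unadjusted P below 0.05 there were 2 members, Rab3c and Sv2b, or 3.12% against 4.91% of all genes. Both were higher with Cort (2.95% of all genes were), and no member was lower (1.95% of all genes were). DESeq2 gave 5 of 72 members tested, all higher, where 6.54% of all genes had such a P in either direction. The median log2 fold change of the members was 0.15, beside 0.04 for all genes, and with all 10 samples 0.32, beside 0.01. It was 0.31 without vehicle sample C03 and 0.10 without Cort sample C07. The summed CPM of all members was 11253 to 12057 with vehicle and 11985 to 15386 with Cort, which overlapped. Set against the neuron markers of the same sample, the members' sum was 1.61 to 1.72 times theirs with vehicle and 1.74 to 2.34 times with Cort among the kept samples. The samples set aside were at 1.55 and 1.72 times with vehicle and 1.88 times with Cort, so this ratio did not overlap in all 10 samples. The gap was narrow, with vehicle sample C02 at 1.724 and Cort sample C08 at 1.743, and the highest value was that of Cort sample C07. The ratio was chosen after its values were seen and was not tested, so no effect of Cort can be read from it.

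Rab3c (chromosome 13, 110054187 to 110280996) encodes a vesicle-bound small GTPase close to Rab3a. It was at 797, 547 and 624 CPM in the vehicle samples C02, C03 and C04, and at 1500.0, 928, 935 and 998 CPM in the Cort samples C07, C08, C09 and C10. The vehicle samples set aside were at 927 and 768 CPM and the Cort sample at 983 CPM, so that all 5 Cort samples were above all 5 vehicle samples, though the closest pair, C01 and C08, were at 927 and 928 CPM. The log2 fold change was 0.72 (0.26 to 1.19, Padj = 0.900), and with all 10 samples 0.52 (Padj = 0.991, edgeR). Without Cort sample C07, the highest, it was 0.53, and its P was below 0.05 in each of the 7 fits that left out a sample. At 2 days Rab3c differed by 0.23 (-0.03 to 0.50).

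Sv2b (chromosome 7, 75114894 to 75309262) encodes a membrane glycoprotein of synaptic vesicles. It was at 76.4, 20.5 and 41.6 CPM with vehicle and 167.9, 284.5, 85.5 and 80.8 CPM with Cort, which did not overlap, though the closest samples were 76.4 and 80.8 CPM. The log2 fold change was 1.73 (0.54 to 2.92, Padj = 0.918, edgeR). Of the samples set aside, a vehicle sample was at 169.4 CPM and the Cort sample at 82.8 CPM, and with all 10 the difference was 1.08 (-0.14 to 2.31). The related Sv2a and Sv2c differed by -0.05 (-0.68 to 0.57) and 0.18 (-0.33 to 0.69).

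Vehicle and Cort did not overlap among the 7 kept samples for 5 of the 64 members (7.81%, against 6.53% of all genes), namely Rab3c, Sv2b, Snap25, Syt1 and Stxbp4. Snap25 was at 2022, 2080 and 1872 CPM with vehicle and 2405, 2535, 2475 and 2113 CPM with Cort, a log2 difference of 0.25 (-0.03 to 0.53). A vehicle sample set aside reached 2459 CPM, and with all 10 the groups overlapped. Over all 10 samples only Rab3c did not overlap, or 1.59% of members against 0.942% of all genes. At an unadjusted P below 0.05, all 10 samples gave 5 members (7.94%, against 4.90% of all genes), all higher with Cort: Vamp2, Rab3c, Unc13a, Rab3b and Sv2c. Vamp2 was at 396 to 930 CPM with vehicle and 729 to 1677 CPM with Cort, and its highest sample was C06, which the study set aside. Without the samples set aside its difference was 0.40 (-0.06 to 0.86) in place of 0.65.

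The 4 week samples left more room for differences that could not be seen. Only Snap25 had an interval within a 1.5-fold difference either way, and 19 of the 64 members had one within 2-fold, among them Vamp2, Syp, Syn1, Syn2, Sv2a, Sv2c, Syt4, Syt5, Syt11, Rab3a and Nsf. The median standard error was 0.28 for the 19 members with a median of 200 CPM or more and 0.93 for the 20 members between 5 and 50 CPM. Single samples moved some members: Cplx2 was at 135 to 223 CPM with vehicle, at 80.7, 135.5 and 86.7 CPM in 3 Cort samples and at 501 CPM in Cort sample C07. Its difference was 0.11 on the log2 scale with C07 and -0.89 without it.

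**Figure D4:**
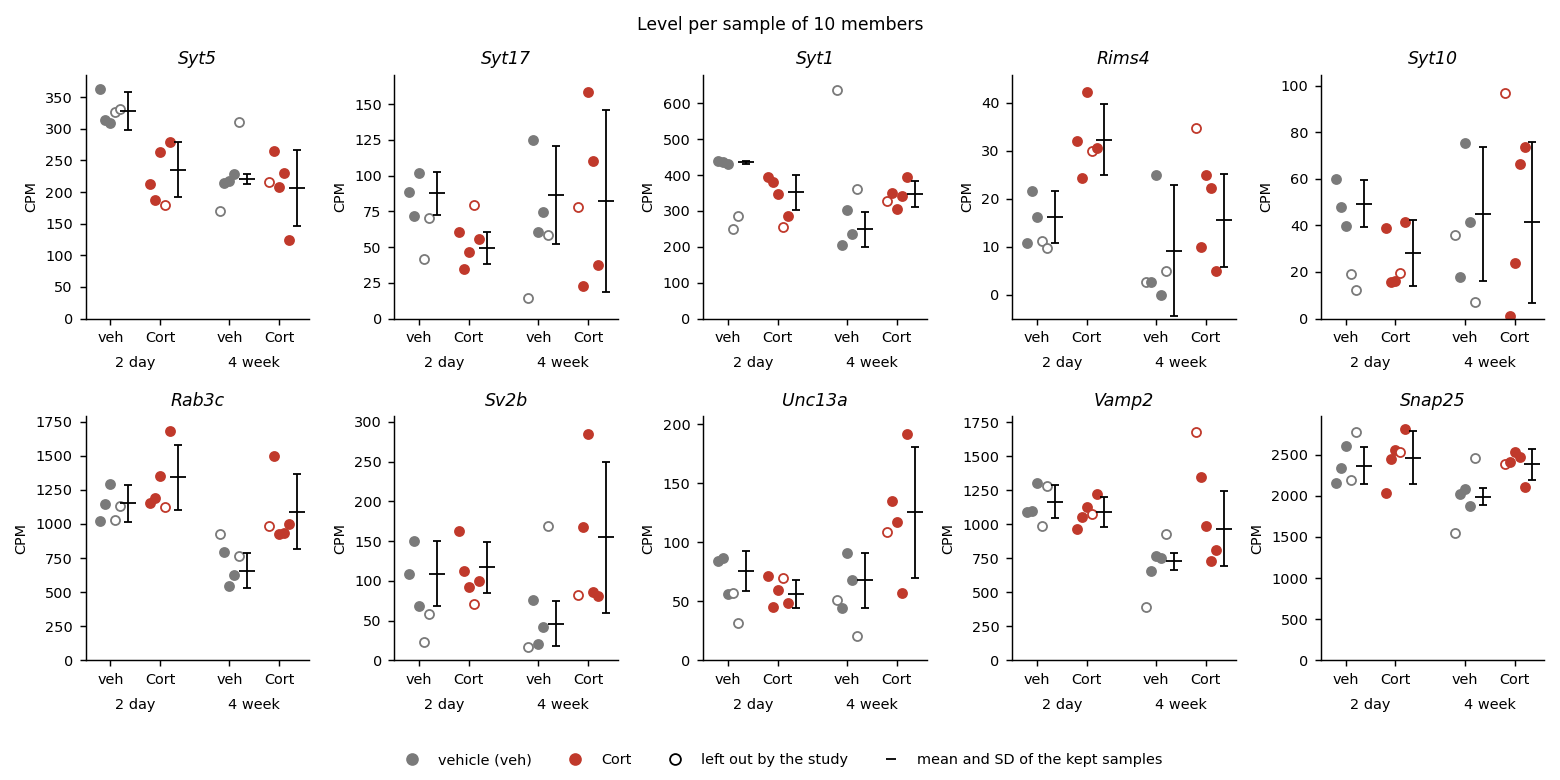
CPM of 10 members in every sample, by dataset and treatment. Grey points are vehicle and red points Cort, open where the study left the sample out, and the bar gives the mean and SD of the kept samples. Syt5 and Rims4 at 2 days and Rab3c at 4 weeks separate by treatment in all 10 samples, while Syt1 separates only among the filled points.

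Whether the Cort difference itself differed between 2 days and 4 weeks was tested as an interaction over the 14 kept samples. None of 66 members had a Padj below 0.1 (0.0157% of 12777 genes did), and the lowest was 0.714. At an unadjusted P below 0.05 there were 6 members (9.09%, against 6.49% of all genes), and in all 6 the Cort difference was greater at 4 weeks (3.51% of all genes). The median over the members was 0.19 on the log2 scale, beside 0.02 for all genes, and 47 of 66 were above 0 (71.2%, against 51.0% of all genes). Since the datasets were made differently, time cannot be told apart from the way the samples were taken and sequenced.

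Syt1 had the lowest P, with an interaction of 0.78 (0.22 to 1.33, Padj = 0.714, edgeR). At 4 weeks it was at 206, 303 and 236 CPM with vehicle and 351, 306, 341 and 395 CPM with Cort, the reverse of its order at 2 days. A vehicle sample set aside was at 639 CPM, the highest of that dataset, and over all 20 samples the interaction of Syt1 was 0.11 (-0.62 to 0.84). Sv2b had an interaction of 1.62 (0.31 to 2.94), and of 0.69 (-0.78 to 2.15) over all 20.

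For Unc13a, whose protein acts on syntaxin to ready the vesicle, the value was similar with and without the samples set aside. Unc13a (chromosome 8, 71624417 to 71671757) was at 56.5 to 86.7 CPM with vehicle and 45.1 to 71.4 CPM with Cort at 2 days, and at 44.3 to 91.3 and 57.2 to 192.1 CPM at 4 weeks. Its interaction was 1.30 (0.17 to 2.42, Padj = 0.736) over 14 samples and 1.23 (0.10 to 2.35) over all 20, by edgeR. In fits that left out a sample it was 1.01 to 1.58, and its unadjusted P was below 0.05 in 10 of 14. For Syt1 this P stayed below 0.05 in 14 of 14 and for Sv2b in 11 of 14. The groups overlapped within each dataset. Snap91 had an interaction of 0.63 (0.03 to 1.24). Vamp8, an endosomal SNARE of mainly non-neuronal cells, had at most 1 count in each vehicle sample at 4 weeks and 3 to 63 counts in the Cort samples, so no fold is given. With all 20 samples 5 members had an unadjusted P below 0.05 (7.58%, against 6.23% of all genes).

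By role, the Ca2+ sensing synaptotagmins had a median of -0.23 on the log2 scale at 2 days, the lowest of the 10 roles, with 2 of 8 higher, and of 0.18 at 4 weeks, with 4 of 8 higher. Vesicle proteins had medians of -0.10 and -0.05, priming and docking genes 0.17 and 0.20, and plasma membrane SNAREs 0.07 and 0.25. With all 10 samples these medians were -0.17 and -0.04 for the Ca2+ sensing synaptotagmins and 0.04 and 0.10 for vesicle proteins. They were -0.06 and 0.39 for priming and docking genes, and -0.10 and 0.52 for plasma membrane SNAREs. Each of these roles thus had the opposite sign in at least 1 dataset, as did SNAREs of other membranes and the remaining synaptotagmins. Vesicle SNAREs, syntaxin-binding proteins, complexins, and disassembly and retrieval genes, with 2 to 6 members each, kept their sign in both datasets. Of the 63 members tested in both datasets, 37 (58.7%) differed in the same direction in both, beside 51.8% of all genes, and the log2 fold changes of the 63 had a Pearson correlation of -0.03 across genes.

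Beyond the 74, a list of 49 other presynaptic genes was followed, covering active zone scaffolds, further Rab effectors and SNARE cofactors, vesicle transporters and pumps, endocytosis and dense core vesicles. None had a Padj below 0.1 at either time. At 2 days 13 of the 46 tested had an unadjusted P below 0.05 (28.3%, against 5.97% of all genes), of which 10 were lower and 3 higher with Cort. With all 10 samples 2 of 45 did (4.44%, against 5.28%), these being Amph and Chgb, so the larger count belongs to the 7 kept samples. The list was chosen with results of these data known, and its genes are not independent of each other.

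The active zone scaffolds Bsn and Pclo were among the lower genes at 2 days. Bsn was at 223 to 296 CPM with vehicle and 156 to 189 CPM with Cort, a log2 difference of -0.54 (SE 0.16, Padj = 0.509), and Pclo at 676 to 1173 and 575 to 690 CPM, a difference of -0.48 (SE 0.15, Padj = 0.545, edgeR). Slc17a6, the vesicular glutamate transporter of most hypothalamic glutamate neurons, differed by -0.62 (SE 0.17) and did not overlap among the kept samples, at 164 to 224 against 110.2 to 142.7 CPM. The dense core vesicle granins Chgb and Scg2 differed by -0.42 and -0.31, and the synaptogyrin gene Syngr1 by -0.51. Higher were Sytl4, by 0.51, the liprin Ppfia3, at 43.5 to 71.0 CPM with vehicle and 39.7 to 263.7 CPM with Cort, which overlapped, and Slc17a7, the cortical glutamate transporter. Slc17a7 was at 0.203 to 1.72 CPM with vehicle and 2.02 to 25.1 CPM with Cort. Its vehicle values lay near the floor of 3 counts, which was 0.609 to 0.759 CPM in these samples. It was not among the genes tested with all 10 samples. With all 10 samples Bsn differed by -0.49, Pclo by -0.35, Slc17a6 by -0.40, Chgb by -0.41, Scg2 by -0.08, Syngr1 by -0.25, Sytl4 by 0.21 and Ppfia3 by 0.83, and each of these genes overlapped. The summed CPM of the 49 genes was 10864 to 11748 with vehicle and 9730 to 9927 with Cort among the kept samples. Those set aside were at 9052 and 8376 CPM with vehicle and 8636 CPM with Cort, so that the sums overlapped in all 10.

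At 4 weeks 6 of the 46 tested had an unadjusted P below 0.05 (13.0%, against 4.91% of all genes), 5 of them lower. Ppfia4, an active zone liprin, was at 61.8 to 72.4 CPM with vehicle and 8.25 to 30.1 CPM with Cort. Scamp5 and Scamp1, secretory carrier membrane proteins, differed by -0.85 and -0.74, Svop by -1.07 and Amph by -0.85. With all 10 samples Svop and Amph turned to 0.08 and 0.17, Scamp5 and Scamp1 were at -0.45 and -0.27, and Ppfia4 went from -1.95 to -0.98, with groups that overlapped. Syngr1 was higher, at 85.2 to 93.6 CPM against 108.8 to 229.8 CPM in the kept samples, and so lay in the opposite direction from 2 days, with an interaction of 1.52 (Padj = 0.703, edgeR). Bsn and Pclo differed by 0.00 (SE 0.40) and -0.16 (SE 0.22) at 4 weeks.

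**Figure D5:**
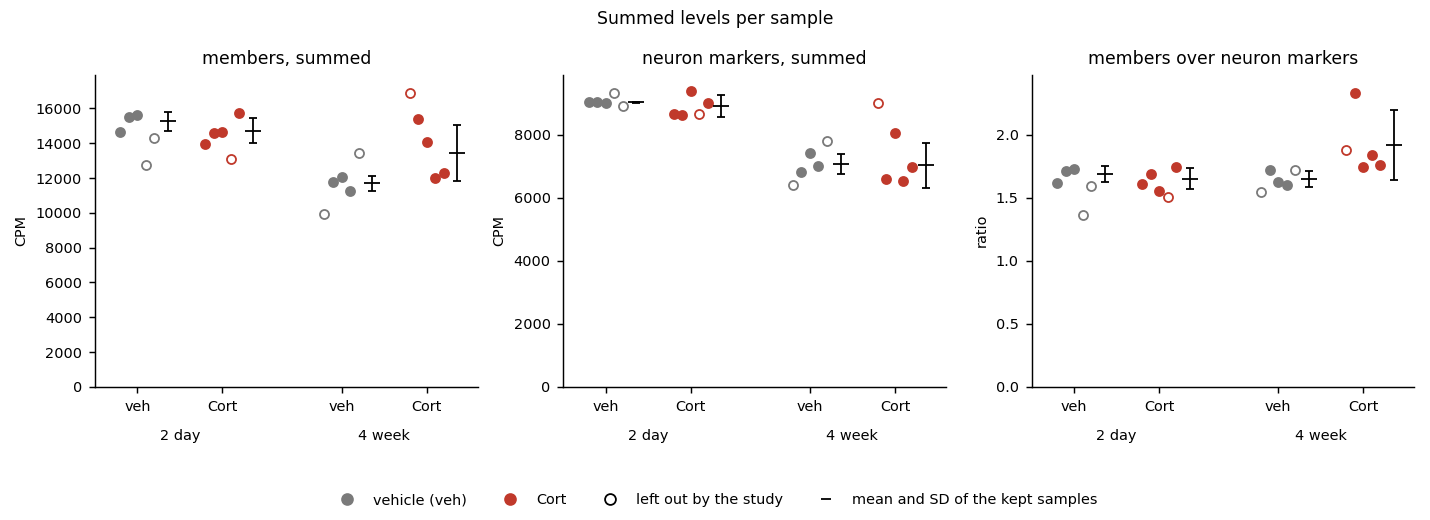
Summed CPM of the 74 members (left) and of 17 neuron markers (middle), and the ratio of the sums (right), in every sample by dataset and treatment. Grey points are vehicle and red points Cort, open where the study left the sample out, with the mean and SD of the kept samples. The sums overlap between treatments in both datasets. The ratio at 4 weeks does not, at 1.61 to 1.72 against 1.74 to 2.34 in the kept samples. It is also apart, narrowly, with those set aside, but it was chosen after its values were seen and was not tested.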

How the data were processed

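The authors deposited raw counts of 22048 genes per sample, made with featureCounts from single-end reads of 50 bases aligned to GRCm38. The annotation release, strand setting and treatment of multiply mapped reads were not given in the sources used here. The signal values in the deposited normalised tables are counts that the authors divided by DESeq2 size factors over the 7 samples kept; of these only the gene names and the mean column were used, the mean as a check on the choice of samples, and 14 columns of per-sample values were left aside. Those tables also hold the authors' fold changes, test statistics and P values, which were not used.

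The column names carry no treatment, so columns were assigned to groups from the study's own list of samples, and where nothing names separate animals, P values measure the spread between samples only. Counts were filtered by edgeR's rule, given TMM scaling and tested with the quasi-likelihood F test (edgeR 4.0.16, limma 3.58.1, DESeq2 1.42.0, R 4.3.3, Python 3.11.15), 2-sided, with no covariate and Benjamini-Hochberg adjustment over all genes. A call was a Padj below 0.1, and counts at an unadjusted P below 0.05 are given beside the share of all genes. Gene positions and exon lengths are from GENCODE vM21 (GRCm38). At most 3 counts were treated as the floor, and this floor covers counting error only, while the fitted intervals also hold the spread between samples. Alternatives were DESeq2, 2 other scalings, 2 other filters, all samples, voom with quality weights and leaving out each sample.

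Named were members with a Padj below 0.1, the 10 lowest P below 0.05 in each dataset and 5 in the interaction, 33 core fusion genes (2 of them counted among the members but not reported here), and up to 8 of the 49 related genes in each dataset with Bsn and Pclo. Members, lists and rules were chosen with earlier results of these data known. Stxbp4, Snap91's interaction and the ratio of members to neuron markers were chosen after their values were seen, as were the genes named at the limit of detection.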

Additional observations from a re-analysis of the deposited data

Results flagged for a closer look

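In the groups of 4 kept Cort samples, 36 named members were examined in 2 datasets for a sample far from the other 3. The cutoff flags about 1 in 20 groups where values are independent and normally distributed. Of the 72 groups, 8 held a far sample. The members share the same samples, so the groups are not independent and no excess over chance can be read from this count. Only 1 of the 8 was at 2 days: Rims1 at 67.8 CPM in C01, below 99.7 to 104.8 in the others. At 4 weeks C07 stood above the other Cort samples for Cplx2 (501 CPM, others 80.7 to 135.5), Rab3c (1500.0 CPM, others 928 to 998) and Vamp8 (13.0 CPM, others 1.55 to 2.15). C08 stood above them for Rab3b (226.7 CPM, others 139.9 to 150.5), Syp (916 CPM, others 329 to 413) and Syt7 (93.6 CPM, others 2.27 to 7.22), and below them for Unc13c (5 CPM, others 62.4 to 67.9). The cause was not tested.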

How the results depend on the processing

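No member had a Padj below 0.1 under any alternative in either dataset or in the interaction. No paired analysis was possible because the columns of the count tables carry no replicate numbers. The study describes singly housed mice assigned to groups of equivalent baseline body weight, and it describes no pairs across treatments. Replicate numbers alone would therefore not show that samples were paired. Of the gene values recomputed under the alternatives, 494 of 517 kept their direction at 2 days, 412 of 454 at 4 weeks and 85 of 85 in the interaction. The interaction count covers only the 5 members of lowest P, while the others also cover core fusion genes whatever they showed. Members picked for a low P seldom turn in fits that share most samples, so the counts cannot be compared. Cplx2 at 4 weeks ranged from -0.89 (without Cort sample C07) to 0.36 (without C08), against 0.11. At an unadjusted P below 0.05, the 2 members higher at 2 days became 1 with scaling to neuron markers and 0 to 3 when a sample was left out (0 without C02 or C06, 1 without C04), and the 4 lower became 1 with all 10 samples and 2 to 5 when a sample was left out (2 without C04). At 4 weeks the 2 higher became 5 by DESeq2 and 5 with all 10 samples, and 2 to 4 when a sample was left out (4 without C02 or C09), while the 0 lower became 0 to 2 (1 without C02 or C07, 2 without C08). In the interaction the 6 members greater at 4 weeks became 7 by DESeq2, of 73 members tested, where 6.95% of all genes had such a P in either direction. They became 2 to 6 when a sample was left out (3 without 2 day C02, 2 without 2 day C04). The 0 smaller became 0 to 2 when a sample was left out (1 without 4 week C02 or C09, 2 without 4 week C08). The median of the members at 4 weeks was 0.10 with upper quartile scaling and 0.09 with at least 10 counts in every sample, against 0.15. The interaction's median was 0.41 over all 20 samples, against 0.19. Of the related genes, with all 10 samples 0 were higher and 2 lower at 2 days, against 3 and 10, and 2 were lower at 4 weeks, against 5. The cause was not tested. Standard errors were larger for members under 50 CPM and at 4 weeks, and how far depth accounts for this was not tested.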
